A study of Homo sapiens with 4 samples.

Results

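Solute carriers are membrane proteins that move nutrients, ions, vitamins and metabolites across the plasma membrane and the membranes of organelles, and the regions described here are the accessible promoters of their genes. A region was included when its gene symbol had the form SLC, a family number, A and a member number, and when it was annotated as a promoter or lay within 1000 bp of a transcription start site (TSS). The rule gave 180 regions at 153 genes, out of 58127 regions in all, 13020 promoter regions and 771 regions of any kind at solute carrier genes. Of the 180, 130 were annotated as promoter and 50 were included by distance alone. One region was found at 126 genes, and 27 genes had 2. The region lists placed 118 regions (114 genes) in the common set, 58 (54 genes) in the set named for shNC and 4 (4 genes) in the set named for shG8d, and 19 genes had regions in more than 1 set.

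Accessibility was measured by ATAC-seq, in which a transposase cuts and tags open DNA, in MCF10A, a non-tumorigenic human mammary epithelial cell line with basal features. Per the labels, 2 libraries (A and B) came from cells with a hairpin against SNHG8d (shG8d), a form of a long noncoding RNA, and 2 (A and B) from cells with a control hairpin (shNC). The study's title places SNHG8d beside histone H1, chromatin condensation and epithelial differentiation. Whether the 2 libraries of a group stem from different cultures is not stated in the labels, and p-values reflect the spread between these libraries alone, which may be technical.

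The group labels are exchanged between region sets. Each deposited value is a whole multiple of what 1 read is worth in its library, and the 4 library values are 0.842, 0.807, 1.21 and 1.17 normalized counts per read. The pair with the smaller values, here called the deeper pair, is labelled shG8d in the common set and shNC in both specific sets, and the shallower pair carries the opposite labels. Every difference below is therefore the deeper minus the shallower pair, and the knockdown is given no direction. Deeper and shallower counts are the normalized counts of libraries A and B of each pair. A log2 difference is the difference of mean log2(normalized count + 1), and a region was called when limma's adjusted p over all 58127 regions was below 0.05. How the authors chose the regions of the specific sets is not given in the sources used here, and p-values there may depend on that choice.

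Reads within regions numbered 8124488 and 8111839 for the deeper pair, against 4457248 and 4344212 for the shallower pair. The median solute carrier promoter held 101 and 107 deeper reads, against 70 and 62 shallower reads, and the lowest held 25 and 27 deeper against 12 and 6 shallower reads. All 180 regions passed the filter on low values. Of 12 epithelial and basal marker genes, 11 had a listed promoter region (TP63 had none listed), with summed levels of 1807 and 1655 normalized counts in the deeper libraries, against 1382 and 1345 in the shallower ones. Of 12 markers of other cell types 2 had one, with summed levels of 133 and 152 in the deeper libraries, against 176 and 209 in the shallower ones. The part of depth or of these marker levels in the differences below was not tested.

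As background, many solute carrier genes are broadly expressed and have CpG-rich promoters without a TATA box. Their names group them by family: families such as SLC1, SLC7 and SLC38 carry amino acids, SLC2 carries sugars, SLC25 lies in the inner mitochondrial membrane, SLC30 and SLC39 carry zinc and SLC4 and SLC26 carry ions. In mammary epithelium these proteins supply growth and milk components and set cell volume and pH.

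RefSeq promoter windows of 300 bases (250 before to 50 after a gene's start, GRCh38.p14) were matched by symbol for 123 of the 153 genes, 196 windows in all. The 5 below are shown because their regions carry the largest or most stable differences described here: SLC2A8, SLC25A3 and SLC25A5 had regions higher in the deeper pair, SLC31A1 had regions called in opposite directions, and SLC10A7 had regions lower in the deeper pair. Each is printed 5′ to 3′ on the gene's strand. Capitals mark exact matches on either strand. The motifs marked are the GC box, spelled GGGCGG, the box named for its letters, CCAAT, the antioxidant response element, spelled TGACNNNGC, and the box spelled TATAAA. The window may belong to another start site than the one the region's distance is counted from. They are SLC2A8 at chr9:127396919-127397218 (plus strand), SLC25A3 at chr12:98593436-98593735 (plus), SLC25A5 at chrX:119468194-119468493 (plus), SLC31A1 at chr9:113221294-113221593 (plus) and SLC10A7 at chr4:146521891-146522190 (minus).
SLC2A8: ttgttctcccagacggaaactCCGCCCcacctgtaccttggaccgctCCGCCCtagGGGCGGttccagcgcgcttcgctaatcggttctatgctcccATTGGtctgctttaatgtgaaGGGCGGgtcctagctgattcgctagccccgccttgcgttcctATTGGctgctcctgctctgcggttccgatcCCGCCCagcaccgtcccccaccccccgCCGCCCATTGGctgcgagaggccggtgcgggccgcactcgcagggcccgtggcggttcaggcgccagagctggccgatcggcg
SLC25A3: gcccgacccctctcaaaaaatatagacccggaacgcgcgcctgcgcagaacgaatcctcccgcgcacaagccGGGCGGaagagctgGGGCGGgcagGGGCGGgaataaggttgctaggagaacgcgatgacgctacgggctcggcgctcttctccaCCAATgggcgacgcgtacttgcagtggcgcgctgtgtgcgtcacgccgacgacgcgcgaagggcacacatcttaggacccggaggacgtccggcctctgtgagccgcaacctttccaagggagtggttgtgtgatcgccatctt
SLC25A5: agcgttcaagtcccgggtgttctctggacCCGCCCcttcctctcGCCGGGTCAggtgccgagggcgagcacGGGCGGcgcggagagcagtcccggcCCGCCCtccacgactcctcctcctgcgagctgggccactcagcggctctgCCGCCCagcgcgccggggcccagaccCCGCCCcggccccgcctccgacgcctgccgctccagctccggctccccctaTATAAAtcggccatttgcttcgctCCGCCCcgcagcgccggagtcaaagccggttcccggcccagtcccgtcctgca
SLC31A1: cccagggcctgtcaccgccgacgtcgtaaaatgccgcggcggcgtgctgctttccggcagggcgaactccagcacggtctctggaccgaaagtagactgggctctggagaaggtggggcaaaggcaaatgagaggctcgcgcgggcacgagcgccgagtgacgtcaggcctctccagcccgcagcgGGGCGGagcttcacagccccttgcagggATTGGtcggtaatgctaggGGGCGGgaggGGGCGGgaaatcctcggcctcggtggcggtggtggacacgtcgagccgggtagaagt
SLC10A7: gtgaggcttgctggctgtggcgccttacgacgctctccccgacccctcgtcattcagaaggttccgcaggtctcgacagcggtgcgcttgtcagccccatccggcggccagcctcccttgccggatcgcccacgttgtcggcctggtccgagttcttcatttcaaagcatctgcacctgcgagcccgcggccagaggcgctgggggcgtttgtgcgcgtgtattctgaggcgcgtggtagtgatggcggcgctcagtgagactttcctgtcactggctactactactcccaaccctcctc

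The SLC2A8 window held 6 GC boxes and 3 CCAAT boxes. The SLC25A3 window held 3 GC boxes and 1 CCAAT box, and so did the SLC31A1 window. The SLC25A5 window held 6 GC boxes, 1 antioxidant response element and 1 TATA box. The SLC10A7 window held none of the 7 motifs searched, which also included TGANTCA (AP-1), TGATGNAA (the C/EBP-ATF element) and CACGTG (E-box).

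Solute carrier promoters were called in both directions in the common set, in shares close to those of all promoters. In the common set, where the deeper pair is labelled shG8d, the deeper pair was higher at 21 of 118 regions (17.8%) and lower at 16 (13.6%), against 17.4% and 12.4% of all 8817 common promoter regions. The median log2 difference was 0.03, against 0.02 for all common promoters. In the shNC-specific set, where the deeper pair is labelled shNC, 20 of 58 regions (34.5%) were higher and 1 (1.72%) lower, against 26.7% and 1.11% of all 3683. The median there was 0.61, against 0.45. In the shG8d-specific set 0 of 4 were higher and 2 lower, against 0.192% and 69.6% of all 520, and the median was -0.90, against -1.13. Per gene, 39 genes had only higher calls, 16 only lower calls, 2 had a call in each direction and 96 had none.

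**Figure D1:**
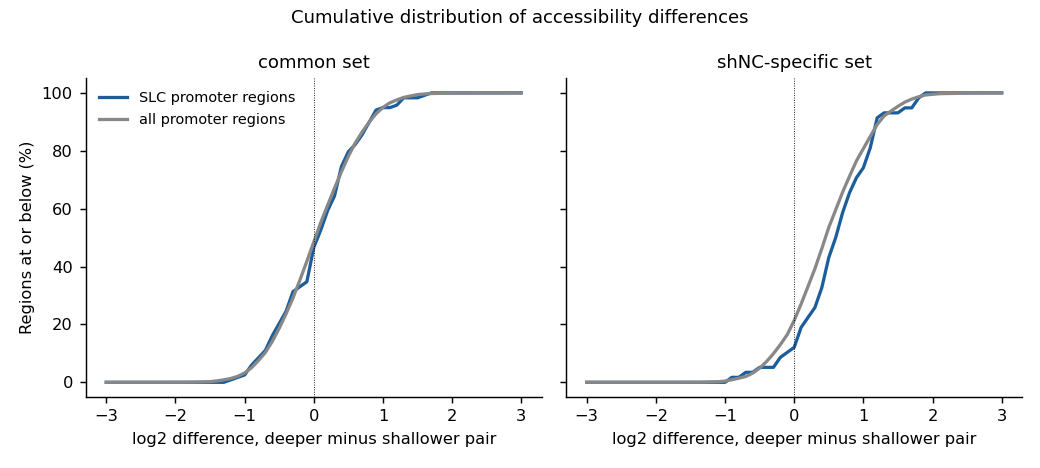
The share of regions at or below each log2 difference (deeper minus shallower pair), for solute carrier promoters and all promoters, in the common set (left) and the shNC-specific set (right). The curves cross 50% at 0.03 and 0.02 in the common set, and at 0.61 and 0.45 in the shNC-specific set.

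The counts rest partly on single libraries, on the scaling and on fitting the sets together. With 1 library left out, the shares called over all promoters moved too. In the common set their higher and lower shares rose or fell as the solute carrier shares did. In the shNC-specific set their higher share did. Without deeper library A, 10 common regions were higher and 4 lower, without deeper library B 6 and 5, without shallower library A 34 and 19, and without shallower library B 18 and 18. In the shNC-specific set the higher calls numbered 4, 10, 31 and 16 in the same order, and the 1 lower call was lost without deeper library A. Scaling all libraries to equal totals shifted the median of all regions by -0.35, and the higher and lower calls then became 7 and 37 in the common set, 10 and 3 in the shNC-specific set, and 0 and 4 in the shG8d-specific set. All promoters moved the same way under that scaling. Their higher and lower shares were 6.67% and 31.5% in the common set, 13.1% and 5.43% in the shNC-specific set, and 0.192% and 92.3% in the shG8d-specific set. Of the calls made on the deposited scaling, 14 of 37 common and 10 of 21 shNC-specific ones were lost under equal totals. With each set fitted alone, the shNC-specific calls were 9 higher and 0 lower and 12 of the 21 were lost, among them those of SLC10A7 at 110 bp upstream, SLC25A6, SLC25A1, SLC25A43, SLC47A2 and SLC1A5. Over all shNC-specific promoters the separate fit gave 12.6% higher and 0.217% lower, against 26.7% and 1.11% with the sets fitted together.

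The promoters called with all 4 libraries and again whichever 1 was left out were 7 of 37 in the common set, 4 of 21 in the shNC-specific set and 2 of 2 in the shG8d-specific set. The common ones were SLC2A8, SLC39A13, SLC25A33, SLC26A6, SLC25A3 and SLC20A1 (all higher) and SLC35A2 (lower). The shNC-specific ones included SLC25A5, SLC31A2 and SLC22A5 (all higher), and the shG8d-specific ones SLC10A7 and SLC31A1 (both lower). The other 30 common and 17 shNC-specific calls were each lost without at least 1 deeper library. Of the 37 common calls, 13 were kept without deeper library A, 10 without deeper library B, 35 without shallower library A and 30 without shallower library B. Each region called kept its sign under the alternative settings tried.

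Among sugar transporters, the SLC2A8 promoter had the highest mean level of all solute carrier promoters and the largest difference of the common set. SLC2A8 (GLUT8) is a glucose transporter found mainly inside cells, and its region lies 93 bp upstream of a TSS on chromosome 9 (hg19). It had 717 and 743 normalized counts in the deeper pair, against 284 and 192 in the shallower pair. The pairs did not overlap, with the deeper one higher, as at 36.3% of all common promoters. The log2 difference was 1.64 (SE 0.18, limma adjusted p = 6.2e-06) and lay between 1.36 and 1.92 when single libraries were left out. SLC2A12 (GLUT12), another facilitative glucose transporter, had 35.3 and 33.9 deeper against 51.9 and 78.5 shallower counts, a log2 difference of -0.87 (limma adjusted p = 0.0414). That call was lost without deeper library A (0.146), deeper library B (0.158) and shallower library B (0.247). The SLC50A1 promoter, for a sugar transporter of the SWEET family, was second in mean level with 318 and 316 deeper against 320 and 285 shallower counts, and was not called (log2 difference 0.07, limma adjusted p = 0.793). Of 8 sugar transporter regions in the common set 1 was higher and 1 lower, beside 17.4% and 12.4% of all common promoters. The 1 in the shNC-specific set was not called.

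The main plasma membrane glucose transporters, SLC2A1 and SLC2A3 (GLUT1 and GLUT3), had no region within the promoter definition. The nearest regions assigned to them lay 8090 bp upstream (SLC2A1) and 2857 bp downstream (SLC2A3). Neither had SLC5A1 (the sodium-glucose cotransporter), SLC6A14 (an amino acid transporter), SLC12A2 (the sodium-potassium-chloride cotransporter) or SLC40A1 (ferroportin, the iron exporter), the last with no region at all. The other 22 of 28 textbook transporters had a promoter region. How the listed regions were found is not given in the sources used here. Whether a promoter with no listed region, in these genes or in TP63, is closed was not tested.

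**Figure D2:**
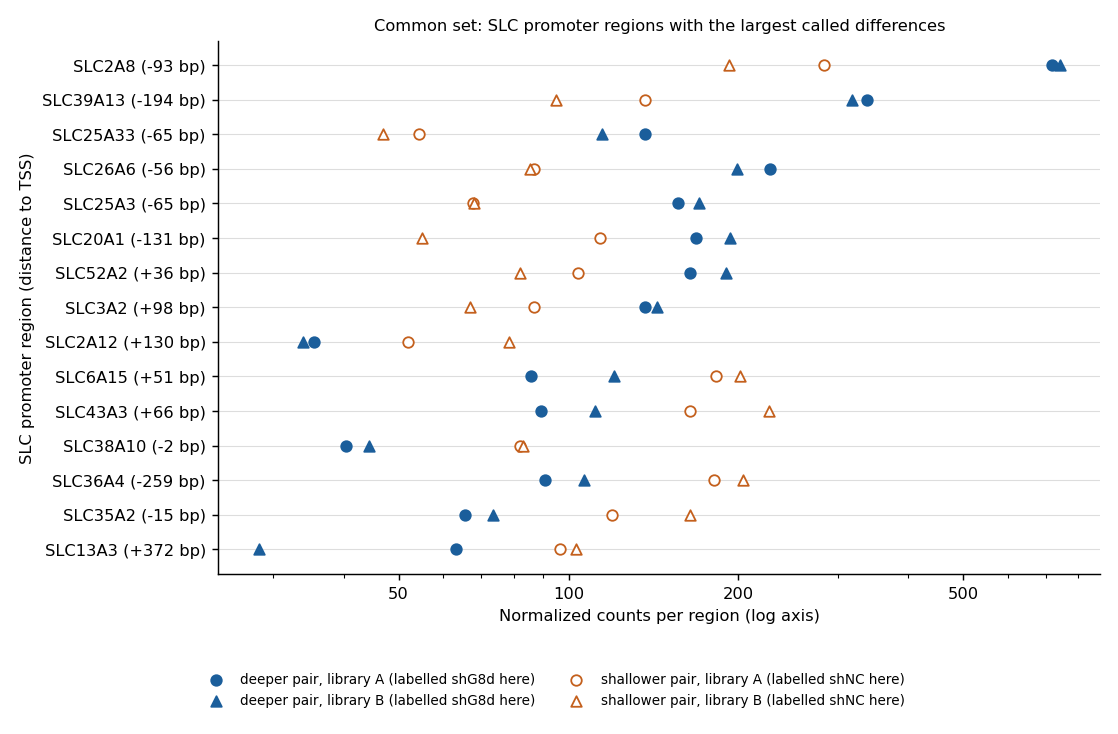
Normalized counts (log axis) in each of the 4 libraries for 15 of the 16 regions of the common set that are among the 8 highest or the 8 lowest called log2 differences, with the distance to the TSS. In each of the 15 regions drawn the 2 deeper libraries (filled) and the 2 shallower libraries (open) do not overlap. The regions were chosen as the largest called differences, so this separation is partly set by the choice. Over all 8817 common promoters the deeper pair lay above without overlap at 3198 and below at 2825.

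Mitochondrial carriers (SLC25) were the largest family. In the common set 7 of 33 were higher and 3 lower with a median of 0.18, beside 17.4% and 12.4% of all common promoters. In the shNC-specific set 6 of 9 were higher and 0 lower with a median of 1.0, beside 26.7% and 1.11%. Under equal totals the common calls were 2 higher and 7 lower with a median of -0.17, the opposite balance, and the shNC-specific ones 3 and 0. The balance of all common promoters turned too, to 6.67% higher and 31.5% lower with a median of -0.33. With the shNC-specific set fitted alone the family's 6 calls there became 2, beside 12.6% higher over all promoters of that set. SLC25A3, which carries phosphate for ATP synthesis, had 157 and 170 normalized counts in the deeper pair, against 67.7 and 68.0 in the shallower pair. Its log2 difference was 1.26 (SE 0.21, limma adjusted p = 0.00044) at 65 bp upstream of a TSS on chromosome 12. SLC25A33, a pyrimidine nucleotide carrier, had 136 and 115 deeper against 54.4 and 46.9 shallower counts (1.29, limma adjusted p = 0.000932), so the 2 carriers stood at almost the same log2 difference.

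SLC25A5 (ANT2), the ADP/ATP exchanger of dividing cells, had the highest positive log2 difference of the solute carrier promoters. Its region in the shNC-specific set held 64.0 and 63.8 normalized counts in the deeper pair, against 21.7 and 14.1 in the shallower pair. On the log2 scale the difference was 1.81 (SE 0.34, limma adjusted p = 0.00127). The related SLC25A6 (ANT3) had a region 101 bp upstream of a TSS at 105 and 80.7 deeper against 58.0 and 29.3 shallower counts, a log2 difference of 1.14 (limma adjusted p = 0.011), lost without deeper library A (0.13). That gene lies in the pseudoautosomal region, where X and Y copies cannot be told apart, and its second region, 35 bp upstream in the common set, was not called (0.38). The SLC25A4 (ANT1) regions, at 0.14 and -0.24, were not called either.

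SLC25A1, the citrate carrier that exports carbon for lipid synthesis, had 158 and 146 deeper against 108 and 52.7 shallower counts in its shNC-specific region, a log2 difference of 1.0 (limma adjusted p = 0.0102), lost without deeper library A (0.0683), without shallower library B (0.0578) and under equal totals (0.0537). SLC25A43, an orphan carrier, had 30.3 and 34.7 deeper against 14.5 and 12.9 shallower counts (1.19, limma adjusted p = 0.0349), lost without deeper library A (0.261), deeper library B (0.353) and under equal totals (0.11). Other higher regions included those of SLC25A45, SLC25A42 (coenzyme A), SLC25A15 (ornithine) and SLC25A35 in the common set, between 0.71 and 0.82, and those of SLC25A22 (glutamate) and SLC25A27 in the shNC-specific set, at 1.09 and 0.87. All but SLC25A22 lost the call under equal totals. Every one lost it when deeper library B was left out, all but SLC25A45 when deeper library A was, and SLC25A35 and SLC25A27 also when shallower library B was.
The lower ones were SLC25A46 (-0.84), which acts in mitochondrial dynamics, SLC25A16 (-0.62) and the oxoglutarate carrier SLC25A11 (-0.61). Without deeper library A the family's common calls were 3 higher and 0 lower and without deeper library B 2 and 0, and the 6 shNC-specific calls became 1 and 3. SLC25A37 (mitoferrin-1, which imports iron for heme) had a log2 difference of -0.01 and SLC25A32, a folate and flavin carrier, of 0.11, and neither was called.

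Of 20 amino acid transporter regions in the common set 2 were higher and 6 lower with a median of -0.07, beside 17.4% and 12.4% of all common promoters. In the shNC-specific set 2 of 10 were higher and 0 lower with a median of 0.65, beside 26.7% and 1.11%. The lower regions were those of SLC36A4 and SLC38A10, SLC43A3, SLC6A15, SLC1A3 and SLC38A9. SLC36A4, a proton-independent transporter of proline and tryptophan, had 90.9 and 107 normalized counts in the deeper pair, against 181 and 204 in the shallower pair. The pairs did not overlap, with the deeper one lower, as at 2825 of all 8817 common promoters. The log2 difference of SLC36A4 was -0.96 (SE 0.20, limma adjusted p = 0.00218), lost without deeper library A (0.0518). SLC6A15, a neutral amino acid transporter, had 85.8 and 120.2 deeper against 182 and 202 shallower counts (-0.91, limma adjusted p = 0.00426), lost without deeper library A (0.132).

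SLC43A3, grouped here by its family number, is known to carry purine nucleobases. Its region had 89.2 and 111 normalized counts in the deeper pair, against 164 and 226 in the shallower pair (-0.94, limma adjusted p = 0.00379), lost without deeper library A (0.0762). SLC38A10 had 40.4 and 44.4 deeper against 82.1 and 83.2 shallower counts (-0.95, limma adjusted p = 0.0127), lost without deeper library A (0.105) and deeper library B (0.0513). SLC1A3, a glutamate transporter, stood at -0.79 and SLC38A9, an arginine sensor of the lysosome, at -0.59, both lost when either deeper library was left out. Across the class, the 6 lower calls numbered 0 without deeper library A, 3 without deeper library B and 8 under equal totals, where 0 were higher and 31.5% of all common promoters were lower.

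Among the transporters of the CD98 complex and of glutamine, 1 region of SLC3A2 and 1 of SLC1A5 were called higher, and the other regions were not called. SLC3A2, the heavy chain that brings SLC7A5 and SLC7A11 to the cell surface, had a region 98 bp downstream of a TSS at 136 and 144 normalized counts in the deeper pair, against 87.0 and 66.8 in the shallower pair. That region, which the annotation assigns to SNORD26, a small nucleolar RNA of the neighbouring host gene, had a log2 difference of 0.87 (limma adjusted p = 0.00778), lost without deeper library A (0.065), deeper library B (0.0836) and under equal totals (0.0756). Its light chains were not called: SLC7A11 (cystine import) stood at -0.10 and SLC7A5 (leucine and other large amino acids) at 0.71 (limma adjusted p = 0.121). SLC7A5 was called, at 1.29, without shallower library A.

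SLC1A5 (ASCT2), a glutamine transporter, had 2 shNC-specific regions. The region 113 bp upstream held 64.0 and 81.5 normalized counts in the deeper pair, against 33.8 and 39.8 in the shallower pair (0.96, limma adjusted p = 0.019), a call lost without deeper library A (0.0634), deeper library B (0.222) and under equal totals (0.11). The region 20 bp upstream held 127 and 111 deeper against 124 and 55.1 shallower counts and was not called (0.51), with 1 shallower library beside the deeper pair. The glutamine transporters SLC38A1 (0.01) and SLC38A2 (0.39) were not called. SLC7A1, the cationic amino acid transporter CAT1, was higher at 0.83 (limma adjusted p = 0.00587), and SLC6A11, a GABA transporter, at 1.30 (limma adjusted p = 0.0105), each call lost without 1 deeper library (B for SLC7A1, 0.137, and A for SLC6A11, 0.167). The SLC7A1 call was also lost under equal totals (0.0792).

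Metal ion transporters had 3 higher and 0 lower calls among 20 common regions (median 0.02), 3 and 0 among 8 shNC-specific regions (median 0.54) and the 1 lower call of SLC31A1 in the shG8d-specific set. The shares over all promoters were 17.4% higher and 12.4% lower in the common set, and 26.7% higher in the shNC-specific set. In the shG8d-specific set 69.6% of all promoters were lower. Equal totals changed the common shares to 6.67% higher and 31.5% lower. SLC39A13 (ZIP13), a zinc transporter of intracellular vesicles, had 337 and 317 normalized counts in the deeper pair, against 137 and 94.9 in the shallower pair. On the log2 scale the difference was 1.51 (SE 0.19, limma adjusted p = 4.11e-05), and the highest adjusted p with 1 library left out was 0.000635. SLC30A1 (ZnT1), which exports zinc, had 138 and 117 deeper against 73.7 and 43.4 shallower counts in a region 543 bp upstream (1.15, limma adjusted p = 0.00376), lost without deeper library A (0.0546). The other higher zinc transporter regions were those of SLC39A3 (1.05) and SLC30A5 (0.62), both lost when either deeper library was left out and under equal totals, and SLC30A5 also without shallower library B, and SLC39A14, a zinc and iron importer, was not called (0.37). Under equal totals the common metal ion calls were 1 higher and 6 lower, and with single libraries left out between 1 and 5 were higher and between 0 and 2 lower.

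The copper transporters had regions called in both directions. SLC31A2 (CTR2), which acts in intracellular copper handling, had 152 and 130 normalized counts in the deeper pair, against 68.9 and 57.4 in the shallower pair (1.15, SE 0.22, limma adjusted p = 0.00147). SLC31A1 (CTR1), the main copper importer, had 212 and 191 deeper against 149 and 123 shallower counts in its common region 3 bp upstream of the TSS (0.57, limma adjusted p = 0.033). That call was lost without deeper library A (0.298), deeper library B (0.137), shallower library B (0.0655) and under equal totals (0.4). Its shG8d-specific region 837 bp downstream had 41.2 and 46 deeper against 96.6 and 104 shallower counts, with -1.19 on the log2 scale (SE 0.25, limma adjusted p = 0.00251). Of all promoters in that set 69.6% were lower, with a median of -1.13. The annotation of the common SLC31A1 region names a transcript of FKBP15, and 9 of the 180 regions are annotated in this way to another gene.

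Among transporters of inorganic ions, 3 of 9 common regions were higher and 1 lower (median 0.17), 3 of 8 shNC-specific regions were higher and 0 lower (0.32), and the 1 shG8d-specific region was not called. All promoters had 17.4% higher and 12.4% lower in the common set and 26.7% higher in the shNC-specific set. Under equal totals the common ion transporter calls were 2 higher and 3 lower with a median of -0.19. All common promoters then had 6.67% higher and 31.5% lower with a median of -0.33. SLC26A6, an anion exchanger for chloride, bicarbonate and oxalate, had 227 and 199 deeper against 87.0 and 85.5 shallower counts (1.29, SE 0.19, limma adjusted p = 0.000204). SLC20A1 (PiT1), which imports phosphate, had 168 and 193 deeper against 114 and 55.1 shallower counts (1.18, SE 0.26, limma adjusted p = 0.00368), and its shallower libraries lay farther apart than its deeper ones.

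The anion exchangers SLC4A3 (AE3) and SLC4A2 (AE2) were higher, SLC4A3 with 53.0 and 45.2 deeper against 15.7 and 12.9 shallower counts (1.71, limma adjusted p = 0.00289), lost without deeper library A (0.109). The SLC4A2 region stood at 0.81 (limma adjusted p = 0.00952), lost without deeper library B (0.165) and under equal totals (0.101). The annotation of that SLC4A2 region, 97 bp upstream of a TSS, names a transcript of another gene, CDK5. The second SLC4A2 region, 745 bp downstream in the shNC-specific set, was not called (0.32). The bicarbonate importer SLC4A7 was not called (-0.02). Neither was the related SLC4A8 in the shG8d-specific set, with 35.3 and 50.8 deeper against 59.2 and 60.9 shallower counts (-0.49, limma adjusted p = 0.223). SLC4A8 was chosen after its values were seen, as the remaining region of that set.

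Carriers of organic anions and cations had 2 higher and 3 lower calls among 11 common regions (median -0.01), and 5 higher and 1 lower among 15 shNC-specific regions (0.57). All promoters had 17.4% higher and 12.4% lower in the common set, and 26.7% and 1.11% in the shNC-specific set. Under equal totals the class had 0 and 5 common and 2 and 1 shNC-specific calls. The shares of all promoters were then 6.67% and 31.5%, and 13.1% and 5.43%. With the shNC-specific set fitted alone the class had 2 and 0 calls there, against 12.6% and 0.217% of all promoters. SLC22A5 (OCTN2), which imports carnitine, had 146 and 141 normalized counts in the deeper pair, against 76.1 and 59.8 in the shallower pair (1.08, SE 0.22, limma adjusted p = 0.00209). SLC16A3 (MCT4), which exports lactate, had 58.1 and 49.2 deeper against 25.4 and 21.1 shallower counts in a region 262 bp downstream (1.17, limma adjusted p = 0.0142), lost without deeper library A (0.196), deeper library B (0.0797) and under equal totals (0.0566). The lactate transporter SLC16A1 (MCT1) had 96.8 and 82.3 deeper against 100.3 and 57.4 shallower counts and was not called (0.23). The second SLC16A3 region, 28 bp upstream, was not called either (0.45, limma adjusted p = 0.361). SLC47A2, a multidrug extruder, had 37.9 and 33.9 deeper against 18.1 and 7.03 shallower counts (1.57, limma adjusted p = 0.0163), with the lowest of these values resting on 6 reads, and lost the call without deeper library A (0.237), deeper library B (0.156) and shallower library B (0.0731).

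SLC13A3, a sodium-dependent dicarboxylate transporter, had the lowest log2 difference of the common set. Its region, annotated to the neighbouring gene TP53RK, had 63.1 and 28.2 normalized counts in the deeper pair, against 96.6 and 103 in the shallower pair (-1.22, SE 0.31, limma adjusted p = 0.00824), lost without deeper library B (0.193). SLC10A7, an orphan member of the bile acid transporter family, was lower at both of its regions. The shG8d-specific region 484 bp downstream of a TSS on chromosome 4 had 27.8 and 25 deeper against 108 and 132 shallower counts, which did not overlap. The region shared this with 92.7% of all promoters of that set, where the deeper pair was lower. Its log2 difference of -2.14 (SE 0.27, limma adjusted p = 3.16e-05) was the lowest of the 180 and lay between -2.29 and -1.99 with single libraries left out. The shNC-specific region 110 bp upstream had 63.1 and 73.4 deeper against 146 and 118 shallower counts (-0.94, limma adjusted p = 0.00558), the only lower call in that set, lost without deeper library A (0.0798).

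**Figure D3:**
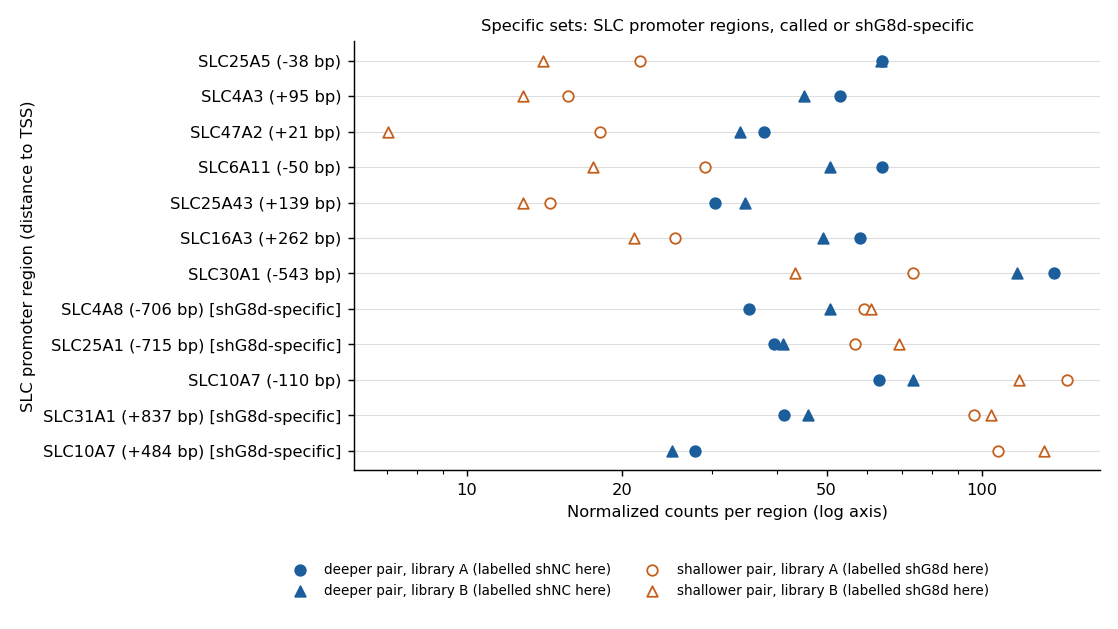
Normalized counts (log axis) in each of the 4 libraries for 7 of the 8 highest and the 1 lower called region of the shNC-specific set and for all 4 shG8d-specific regions. The deeper libraries (filled) lie above the shallower ones (open) in the 7 upper rows, and below them in the 5 lower rows. Over all shNC-specific promoters the deeper pair lay above without overlap at 53.7% and below at 8.77%. Over all shG8d-specific promoters it lay below at 92.7%.

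The remaining classes were small. SLC35A2, which carries UDP-galactose into the Golgi for glycosylation, had 65.6 and 73.4 normalized counts in the deeper pair, against 120 and 164 in the shallower pair. Its log2 difference was -1.0 (SE 0.22, limma adjusted p = 0.00399), and the highest adjusted p with 1 library left out was 0.0499. Nucleoside and vitamin transporters had 3 higher and 1 lower among 6 common regions, and 0 of 4 called in the shNC-specific set. All common promoters had 17.4% higher and 12.4% lower, or 6.67% and 31.5% under equal totals. The counts of this class changed as well. Under equal totals 1 common region was higher and 2 lower, and without deeper library B 0 were called. The higher ones were SLC52A2 (riboflavin, 164 and 190 deeper against 104 and 82.0 shallower counts, log2 difference 0.93, lost without deeper library B at an adjusted p of 0.0708 in limma), SLC46A3 (0.83) and the thiamine transporter SLC19A2 (0.54), both lost when either deeper library was left out and under equal totals, and SLC46A3 also without shallower library B.
The lower one was SLC29A1 (ENT1), which equilibrates nucleosides, at -0.72, lost without deeper library A (0.288) and deeper library B (0.0513). The folate carrier SLC19A1 was not called (-0.10), and neither was SLC27A4 (FATP4, fatty acid uptake), at 0.31 and -0.31 in its 2 regions.

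The 27 genes with 2 promoter regions allow a comparison in which the scaling between libraries largely cancels, since the ratio of the 2 regions is taken within each library. This comparison was chosen after the values were seen. The ratio was called in 12 of 27 solute carrier genes, against 39.4% of all 1236 genes with exactly 2 promoter regions. On the deposited scaling the 2 regions had log2 differences of opposite sign in 16 genes (59.3%, against 53.9% of the 1236), both above 0 in 10 and both below in 1, SLC10A7. These signs, unlike the ratio, move with the scaling: under equal totals 17 genes had opposite signs (46.6% of the 1236), 4 had both regions above 0 and 6 both below. Of 16 genes with a common and a shNC-specific region, the shNC-specific region had the larger log2 difference in 13. The medians of all promoters were 0.45 in the shNC-specific set and 0.02 in the common set. That count therefore cannot be separated from set membership, and nothing is concluded from it about these genes. The 2 regions of a gene can serve different start sites or lie close together, and part of them come from sets that may have been chosen by a difference.

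In 5 genes the ratio was called with all 4 libraries and whichever 1 was left out. SLC47A2 had -0.64 at 361 bp upstream and 1.57 at 21 bp downstream, a ratio of -2.21 on the log2 scale (SE 0.41, limma adjusted p = 3.82e-05). In SLC39A13 both regions were common, with 1.51 at 194 bp upstream and -0.34 at 734 bp downstream (1.85, limma adjusted p = 0.000106). The downstream SLC39A13 region held 74.9 and 74.2 deeper against 101 and 87.9 shallower counts. SLC31A1 had 0.57 at its TSS and -1.19 at 837 bp (1.76, limma adjusted p = 0.000218), and SLC38A10 had 0.74 at 850 bp upstream and -0.95 at 2 bp upstream (1.69, limma adjusted p = 0.000309).

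The other 7 ratios each lost the call without at least 1 library. SLC3A2 had 0.87 at 98 bp and -0.61 at 316 bp (1.47, limma adjusted p = 0.00138), lost without deeper library A (0.0741), and SLC25A1 had -0.62 at 715 bp upstream and 1.0 at 16 bp (-1.63, limma adjusted p = 0.000986), lost without shallower library B (0.0602). SLC30A1 had 1.15 at 543 bp upstream and -0.16 at 920 bp downstream (1.31, limma adjusted p = 0.00514), lost without deeper library A (0.152) and shallower library B (0.0936). SLC11A2 (DMT1, the ferrous iron importer) had 2 shNC-specific regions at 29 and 23 bp upstream, at -0.55 and 0.43 (-0.99, limma adjusted p = 0.0322). Its call was lost without deeper library A, deeper library B and shallower library A (adjusted p between 0.137 and 0.275 in limma). SLC10A7, SLC22A18 and SLC25A22 made up the 7. Without deeper library A 6 ratios were called, without deeper library B 8, without shallower library A 12 and without shallower library B 9.

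**Figure D4:**
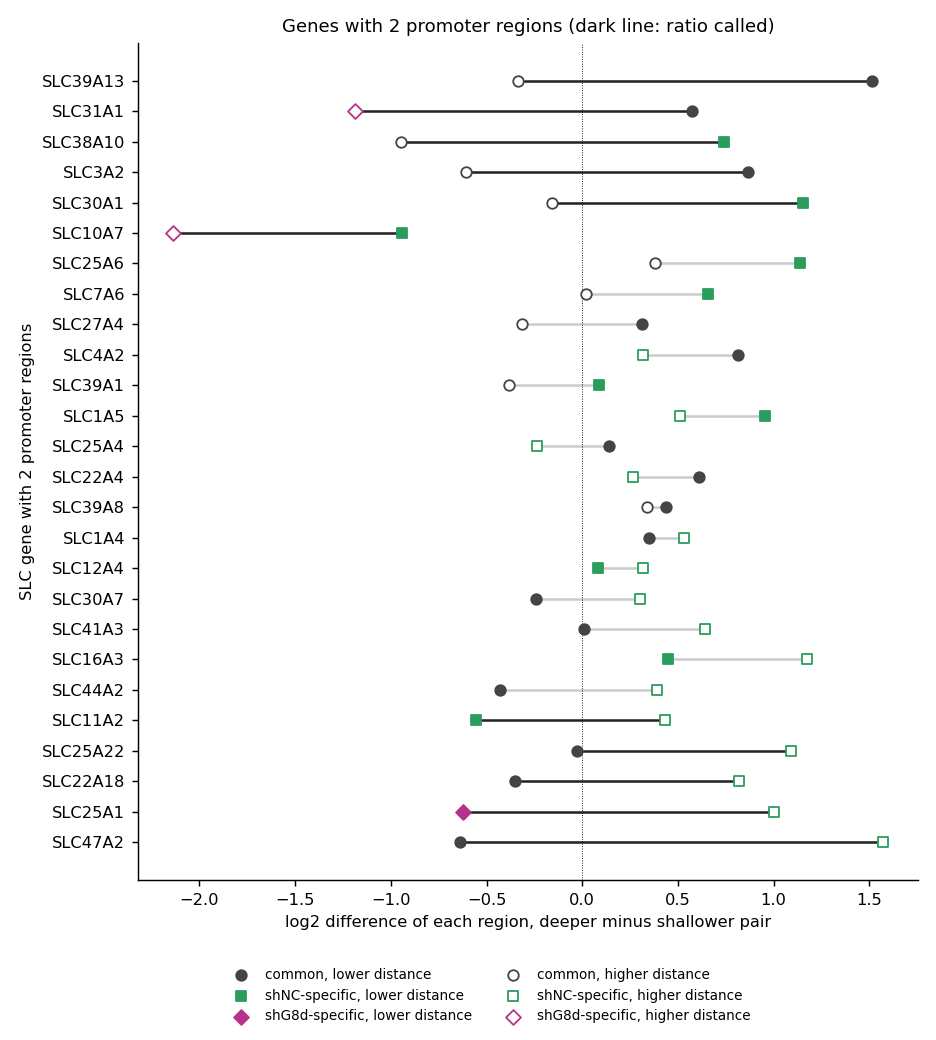
The log2 difference (deeper minus shallower pair) of both promoter regions for 26 of the 27 solute carrier genes that have 2, joined by a dark line where the ratio of the regions was called and a pale line where it was not. Among those drawn SLC47A2 (-0.64 and 1.57) has the widest span, and 15 lines cross 0.

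Calls were also counted by distance to the TSS, in bins chosen after the values were seen. In the common set 15 of 47 solute carrier regions in the 300 bp upstream of a TSS were higher and 6 lower (median 0.36), against 795 and 371 of 3396 promoter regions there (median 0.14). In the 300 bp downstream 5 of 42 were higher and 6 lower (median -0.01), against 576 and 445 of 3840 (0.02). Beyond 300 bp downstream 0 of 19 were higher and 3 lower (median -0.16), against 62 and 169 of 847 (-0.21). In the shNC-specific set 9 of 24, 10 of 20 and 0 of 10 were higher in the same bins, against 473 of 1440, 361 of 1271 and 64 of 553 of all promoter regions. Farther than 300 bp upstream, 1 of 10 common regions was higher and 1 lower (median -0.06), against 105 and 107 of 734 (-0.09). There 1 of 4 shNC-specific regions was higher, against 87 of 419 of all promoter regions. The 3 common lower regions beyond 300 bp downstream were those of SLC13A3, SLC1A3 and SLC29A1. The difference between bins was not tested.

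**Figure D5:**
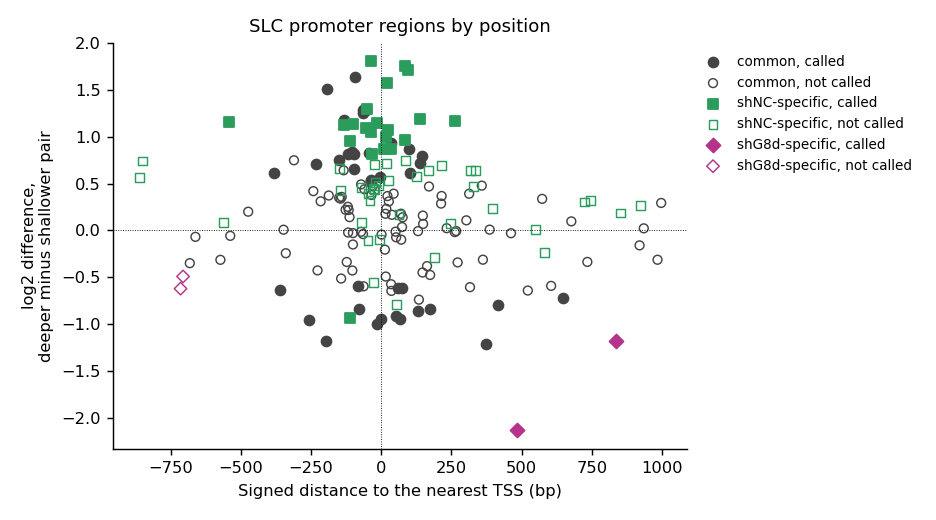
The log2 difference of each of the 180 solute carrier promoter regions against its signed distance to the nearest TSS (bp), by region set, filled where called. No common or shNC-specific region beyond 300 bp downstream is called higher, and the shG8d-specific regions at 484 and 837 bp are lower.

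The base composition and motifs of the windows are given as descriptions. The 196 windows of solute carrier genes had a median GC share of 66.0%, against 62.3% for 22198 windows of all protein-coding genes. All 196 belong to genes with a listed accessible promoter region, whereas the 22198 were not chosen by accessibility. The part of that choice in the contrasts with all windows was not tested. A GC box was present in 74.0% of 50 windows of genes with higher calls, in 44.4% of 18 windows of genes with lower calls and in 64.0% of 125 windows of genes with no call, against 56.3% of all windows. A CCAAT box was present in 46%, 22.2% and 34.4%, against 34.7%. The AP-1 motif was present in 2 of 50, 4 of 18 and 9 of 125 windows, against 6.15% of all. The antioxidant response element was present in 24%, 16.7% and 14.4%, against 13.8%, and the TATA box in 2%, 5.56% and 6.40%, against 9.47%. Several windows of 1 gene can overlap, and no test was made of these shares.

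Other transporters, under other names and with the same promoter definition, showed calls in both directions too, beside 17.4% higher and 12.4% lower over all common promoters. ABC transporters had 3 higher and 1 lower among 18 common regions and 1 higher of 4 shNC-specific regions. Solute carrier genes under other symbols had 1 higher and 2 lower among 16 common regions and 3 of 5 higher in the shNC-specific set. P-type ATPase pumps had 2 higher and 2 lower among 11 common regions and 6 of 7 higher in the shNC-specific set, where 26.7% of all promoters were higher, among them ATP2A2, the calcium pump of the endoplasmic reticulum (1.83, limma adjusted p = 0.0168). In the authors' deposited table an unadjusted p below 0.05 was given for 35 of 118 common, 21 of 58 shNC-specific and 2 of 4 shG8d-specific solute carrier promoters, and all of these were among the regions called here. Both tests rest on the same 4 libraries, so the overlap is not independent, and no share over all promoters is given. The calls made here were the more liberal in the common set, at 37. SLC25A11 and SLC30A5 were called (limma adjusted p = 0.0484 and 0.0485), with unadjusted deposited p-values of 0.0524 and 0.0548.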

How the data were processed

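ATAC-seq of 4 MCF10A libraries was deposited as 1 table of regions. Per the submitters' processing notes, CASAVA 1.4 and genome build hg19 were used, and the aligner, peak caller and counter were not given in the sources used here. Per the file headers, the values are log10 normalized counts for every library, with the authors' log2 fold change and unadjusted p-value, which were used here only as a count of p-values. Taken back from log10, 100% of the deposited values were whole multiples (within 0.05 reads) of a step set by the library, which recovers reads per region. A 0 allows up to 3 reads, or 2.42 to 3.62 normalized counts, for counting error only.

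The steps of the 3 region sets differed by no more than 1.59e-10 of their size and identified the libraries. The design assumed normalized values; the unit proved to be log10, so values were raised to powers of 10 and tested with limma 3.58.1 in R 4.3.3, using log2(normalized count + 1) and a trended variance, over 58127 regions with at least 10 normalized counts in 2 libraries, two-sided, adjusted by Benjamini and Hochberg's method with a threshold of 0.05. Changes of low regions are understated by the pseudocount of 1. The procedure was tested on simulated data. Reads of libraries of a pair differed by more than sampling noise (chi-square per region 2.09 for the deeper pair, 2.68 for the shallower), so all 4 were kept.

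The members, functional classes by family number and other lists were chosen with earlier results of these data known. The regions named are the up to 8 called regions of highest and lowest difference in each set, the 5 of highest mean level and all promoter regions of 28 textbook transporters. Members named beyond these are examples of a class count or of the 2-region comparison, chosen after their values were seen. The letters A and B did not pair libraries (correlation of deviations -0.00393). Alternatives covered the pseudocount, filter, scaling, recovered reads, separate fits per set, the annotation rule, a replicate block and each library left out. Promoter windows and names came from RefSeq (GRCh38.p14); region starts and ends were not used. Results of some genes under these rules are not reported here.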

Additional observations from a re-analysis of the deposited data

How the results depend on the processing

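Pseudocounts of 0.5 and 10, no filter, a filter of 20 normalized counts, quantile normalization and voom on the recovered reads left the 9 counts and medians per set on the same side, within 1.5 times of the reported counts. Equal library totals gave 7 higher and 37 lower calls in the common set with a median of -0.32 (0.03 as reported), 10 and 3 with a median of 0.26 in the shNC-specific set, and 0 and 4 with a median of -1.25 in the shG8d-specific set. The medians of all promoters under that scaling were -0.33, 0.10 and -1.47 in the same order. Each region set fitted alone gave 9 higher and 0 lower calls in the shNC-specific set. Regions annotated as promoter alone gave a median of 0.14 in the common set, and 0 lower calls and a median of -0.56 in the shG8d-specific set. With single libraries left out, the common set gave 6 to 34 higher and 4 to 19 lower calls and medians of -0.023 to 0.16, and the shNC-specific set 4 to 31 higher and 0 to 1 lower calls. The cause of these changes was not tested. With the letters as a replicate block, 22 common regions were higher and 18 lower, 20 and 1 shNC-specific regions, and 0 and 2 shG8d-specific regions.

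Log2 differences of regions that were not called changed sign under some settings. Under equal totals they were -0.34 for SLC38A1, -0.28 for SLC50A1, -0.24 for SLC25A32, -0.12 for SLC16A1 and -0.042 for the SLC27A4 region at 216 bp upstream, and under quantile normalization -0.014 for SLC38A1 and -0.031 for SLC50A1. With single libraries left out they ranged from -0.69 to 0.066 for SLC27A4 at 984 bp, -0.35 to 0.16 for SLC7A11, -0.13 to 0.084 for SLC4A7, -0.36 to 0.34 for SLC25A37, -0.24 to 0.26 for SLC38A1 and -0.015 to 0.15 for SLC50A1. They ranged from -0.17 to 0.63 for SLC16A1, -0.21 to 0.016 for SLC19A1 and -0.070 to 1.09 for the SLC1A5 region at 20 bp upstream. With 1 library left out, its pair holds a single library, assumed to vary like the other pair. The depth of the shallower pair, with 6 reads in the lowest region, limits what can be told of weak regions.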
